A study of Gallus gallus with 9 samples.

Results

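The genes described here are 7 that were used as markers of periocular mesenchyme, namely *PITX1*, *FOXC1*, *FOXC2*, *PRRX1*, *LMX1B*, *BARX2* and *SCARA5*. They were taken by symbol from the table of 16635 genes, and all 7 were present. RNA was measured in retinal pigment epithelium (RPE) that was laser-captured from cryosections of White Leghorn chicken embryos. The rRPE group was reprogrammed RPE, taken 6 h after retinectomy with an FGF2-soaked bead placed in the eye cup of the embryonic day 4 eye. The t-rRPE group was transiently reprogrammed RPE, taken 6 h after retinectomy alone, and the RPE group was intact embryonic day 4 RPE. No sham operation or matching 6 h wait was described for RPE. In comparisons with it, the surgery and the time after it cannot be told apart. Each group held 3 libraries from 3 embryos. Only RPE close to the bead was captured for rRPE, and FGF2 came with its bead, so their parts cannot be told apart.

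Periocular mesenchyme is the loose tissue around the optic cup, built by cranial neural crest and mesoderm cells. It gives rise to the corneal stroma and endothelium, the stroma of the iris and ciliary body, the trabecular meshwork, the sclera and much of the choroid, and in the chick its signals promote RPE fate in the optic vesicle. It lies against the RPE, so that a captured strip of RPE can carry some of it. In bulk RNA, fewer cells of a type and less RNA per cell cannot be told apart, and which cells the reads came from was not measured.

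Reads assigned to genes came to between 26167206 and 45563924 in a library, and 1 read was worth 0.768 to 1.30 normalized counts. In a check of the tissue, 13 of 14 RPE identity genes (such as *TYR*, *DCT* and *PMEL*) held reads in all 9 libraries, at a summed normalized count of 265491 to 423917 in rRPE, 346651 to 471225 in t-rRPE and 355172 to 404489 in RPE. Markers of other cell types were present too. Endothelial genes (14 measured) summed to between 4572 and 15077, erythroid genes (8) to between 146203 and 535354, and lens genes (15) to between 22962 and 52359 in rRPE, 49461 and 410963 in t-rRPE, and 1014 and 1665 in RPE. Muscle genes (6) summed to at most 1027, surface epithelium genes (5) to at most 2380.0, mural genes (5) to at most 3317, neural crest and glia genes (5) to between 10115 and 22480.1 (of which *SOX10* alone made 9917 to 21752), and neural retina genes (10) to between 13285 and 24467.

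Summed by library, the 7 genes came to 618, 714 and 646 normalized counts in rRPE (replicates 1, 2 and 3), to 905, 682 and 812 in t-rRPE, and to 2248, 3639 and 2715 in RPE. Every library of both injured groups therefore lay below every intact library. *BARX2* alone gave 298, 240.2 and 376 of these counts in rRPE, 756, 363 and 743 in t-rRPE, and 1189.7, 1244 and 967 in RPE. The sums therefore say less of the lower genes. By single genes, 6 of 7 had a log2 fold change below 0 in rRPE against RPE and all 7 in t-rRPE against RPE, where 48.5% of all genes did in either comparison. Values of each gene were fitted with limma on log2(normalized count + 1), and a gene was called when its adjusted p over all 16535 genes tested was at most 0.05 and its absolute log2 fold change at least 1. By this rule *BARX2* was called lower in rRPE and *SCARA5* in t-rRPE.

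**Figure D1:**
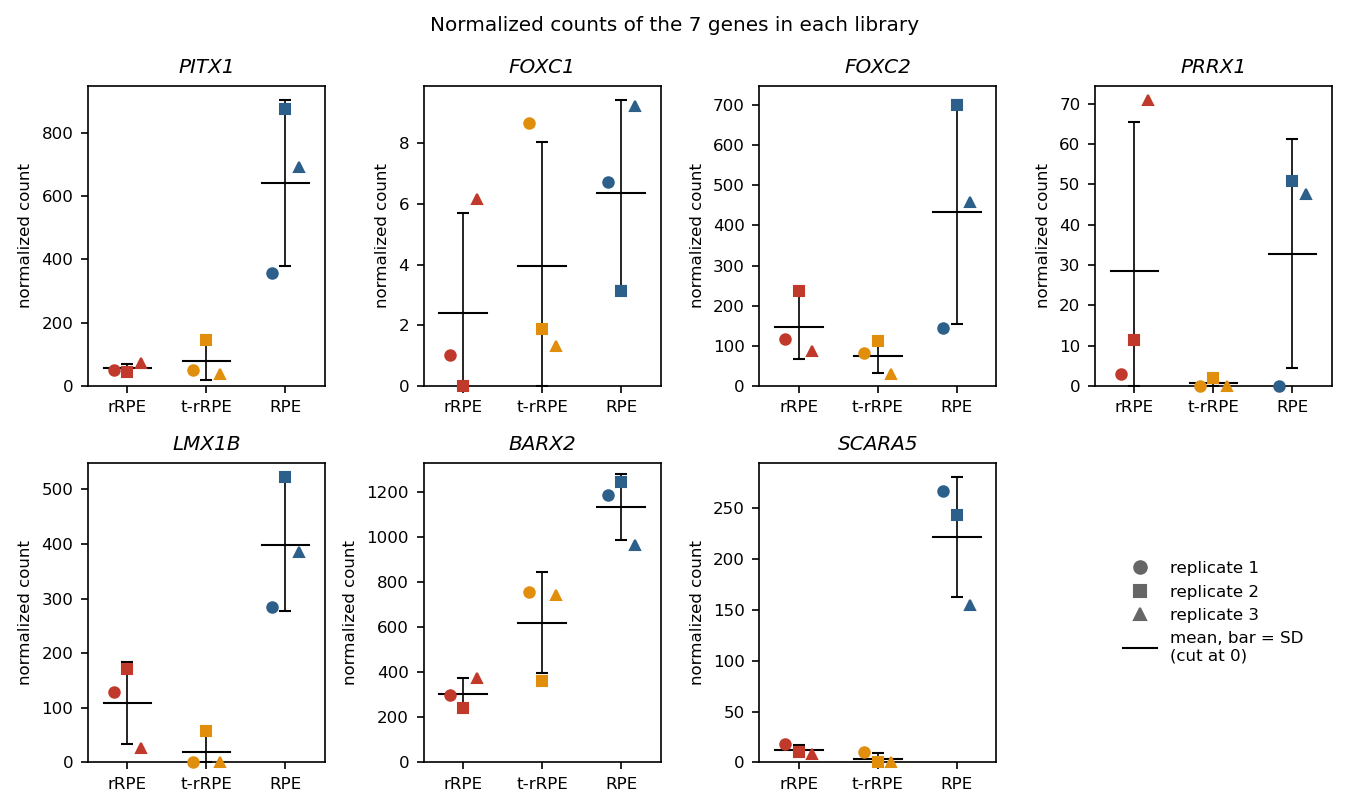
Normalized count (vertical axis, from 0, a separate scale for each gene) of the 7 genes in the 3 libraries of rRPE, t-rRPE and RPE. Symbols are replicates, horizontal lines are means and bars are SD, cut at 0. *PITX1*, *LMX1B*, *BARX2* and *SCARA5* lie lower in all 6 injured libraries than in all 3 intact ones, and *FOXC1* stays under 10 in every library.

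*PITX1* (ENSGALG00000030237) encodes a paired-type homeodomain factor best known for specifying the hindlimb and parts of the pituitary. Its normalized counts were 51.8, 43.9 and 71.9 in rRPE, 48.8, 146 and 37.8 in t-rRPE, and 357, 874 and 692 in RPE. The 6 injured libraries did not overlap with the intact ones, of which replicate 1 was the lowest. The mean was 11.5-fold lower in rRPE than in RPE (55.8 ± 14.4 against 641 ± 262, SD, n = 3 each), with a log2 fold change of -3.43 (SE 0.75, adjusted p = 0.0598 in limma). In t-rRPE it was 8.28-fold lower (77.4 ± 59.3 against 641 ± 262), with a log2 fold change of -3.19 (SE 0.75, adjusted p = 0.104). Neither passed the threshold in limma. DESeq2 on the recovered whole reads called it lower in both groups (adjusted p = 1.326e-05 in rRPE and 0.0003916 in t-rRPE), while edgeR did not (adjusted p = 0.0668 and 0.134). Between rRPE and t-rRPE the difference was -0.24 (95% interval -1.89 to 1.41).

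*LMX1B* (ENSGALG00000040582) encodes a LIM-homeodomain factor that patterns the dorsal limb and, in the mouse, is needed in periocular mesenchyme for the anterior segment. Its normalized counts were 129, 171 and 26.7 in rRPE, 0, 56.9 and 0 in t-rRPE, and 284, 523 and 386 in RPE. All reads of t-rRPE therefore came from replicate 2, where there were 61. By counting error alone, a count of 0 in replicates 1 and 3 allows up to 3.26 and 3.91 normalized counts. Losses in the low-input capture and cDNA amplification are not covered by such a bound, so the true level may be higher. Both injured groups lay below every intact library, and they overlapped with each other. The log2 fold change was -6.64 in t-rRPE (SE 1.55, adjusted p = 0.0985) and -2.18 in rRPE (SE 1.55, adjusted p = 0.67) against RPE. The t-rRPE value depends on the offset and the model, since 2 of 3 libraries were at 0. It came to -5.08 with an offset of 5 and to -4.38 with edgeR and DESeq2, and the mean was 21.0-fold lower (19.0 ± 32.9 against 398 ± 119.9). Without t-rRPE replicate 2 it was called in t-rRPE (adjusted p = 0.0369), where both libraries left were at 0 and the fitted log2 fold change of -8.60 depends on the offset of 1. For rRPE against t-rRPE the difference was 4.46 (95% interval 1.06 to 7.86, unadjusted p = 0.0146, adjusted p = 0.402 in limma), and it came to 2.97 with an offset of 5 and 2.51 with edgeR and DESeq2.

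*PRRX1* (ENSGALG00000003324) encodes a paired-related homeodomain factor of craniofacial and limb mesenchyme. Its normalized counts were 3.05, 11.5 and 70.8 in rRPE, 0, 1.87 and 0 in t-rRPE, and 0, 50.8 and 47.6 in RPE. It held 2 reads in all of t-rRPE, and in RPE it was undetected in replicate 1, which allows up to 2.88 normalized counts by counting error alone. Its groups overlapped for RPE against either injured group. The 3 reads of rRPE replicate 1 were not resolved from the t-rRPE libraries. Counts of 0 in replicates 1 and 3 of t-rRPE allow up to 3.26 and 3.91 normalized counts by counting error alone. The ratio of RPE to t-rRPE over pooled reads was 48.4 (95% counting interval 13.1 to 404, exact binomial, which covers counting error only), and limma did not call the difference (log2 fold change -3.26, SE 1.78, adjusted p = 0.483). The fitted value depends on the model, at -5.43 with edgeR and -5.65 with DESeq2. For rRPE against RPE the log2 fold change was 0.18 (95% interval -3.72 to 4.07). This sign rested on single libraries, since it came to -0.94 without rRPE replicate 3 and to -1.71 without RPE replicate 1.

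*BARX2* (ENSGALG00000029382) encodes a Bar-class homeodomain factor studied in the mouse in muscle, cartilage and glandular epithelia. Its normalized counts were 298, 240.2 and 376 in rRPE, 756, 363 and 743 in t-rRPE, and 1189.7, 1244 and 967 in RPE. Its intact replicates were the tightest of the 7 (coefficient of variation 12.9%), and both injured groups lay below them. *BARX2* fell 3.72-fold in rRPE (305 ± 68.0 against 1134 ± 146), with a log2 fold change of -1.91 (SE 0.38, adjusted p = 0.0438 in limma). In t-rRPE its level was 621 ± 223, with a log2 fold change of -0.94 (SE 0.38, adjusted p = 0.367). The difference of rRPE from t-rRPE was -0.97 (95% interval -1.82 to -0.13, unadjusted p = 0.028, adjusted p = 0.506). The call in rRPE was kept in only 1 of 9 fits with a library left out, that without t-rRPE replicate 2 (adjusted p = 0.0253), while the other 8 gave adjusted p up to 0.182. The log2 fold change in these fits stayed between -2.07 and -1.75. The call was also lost with edgeR (adjusted p = 0.0608), with the replicate block (0.0658) and without the trend in limma (0.0993), and kept with DESeq2 (8.48e-05).

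*FOXC1* (ENSGALG00000030442) and *FOXC2* (ENSGALG00000036593) encode closely related forkhead factors that the mouse needs in periocular mesenchyme for the cornea and the drainage angle of the eye, and *FOXC1* mutations in people cause Axenfeld-Rieger anomalies. *FOXC2* had normalized counts of 117, 237 and 86.2 in rRPE, 81.4, 113 and 30.0 in t-rRPE, and 143, 701 and 458 in RPE. It was lower than RPE in every t-rRPE library, whereas rRPE replicate 2 exceeded RPE replicate 1. Its log2 fold change was -2.44 in t-rRPE (SE 0.82, adjusted p = 0.267) and -1.42 in rRPE (SE 0.82, adjusted p = 0.568), neither called by limma, and DESeq2 called it in t-rRPE only (adjusted p = 0.0319). *FOXC1* was near the limit of detection throughout, with normalized counts of 1.02, 0 and 6.16 in rRPE, 8.68, 1.87 and 1.30 in t-rRPE, and 6.73, 3.13 and 9.22 in RPE. Its groups overlapped in every comparison, and a difference was not detectable at this depth (95% interval of the log2 fold change -4.34 to 1.34 in rRPE and -3.63 to 2.06 in t-rRPE). Where reads fall in stretches shared by the paralogs, the counting may have split them, and the same holds for *PRRX1* with *PRRX2*. The libraries were counted without strand, so reads of an antisense transcript could not be told apart from those of the gene.

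*SCARA5* (ENSGALG00000016580) encodes a class A scavenger receptor of the cell surface that binds serum ferritin in the mouse, and it is the one gene of the 7 that is no transcription factor. Its normalized counts were 18.3, 10.4 and 8.21 in rRPE, 9.77, 0 and 0 in t-rRPE, and 267, 243 and 155 in RPE. The lowest intact library was thus far above the highest injured one. By counting error alone, a count of 0 allows up to 2.80 and 3.91 in the 2 t-rRPE libraries without reads. *SCARA5* fell in t-rRPE (3.26 ± 5.64 against 222 ± 58.9), with a log2 fold change of -6.62 (SE 1.30, adjusted p = 0.0494 in limma). In rRPE it was 18.0-fold lower (12.3 ± 5.28), with a log2 fold change of -4.10 (SE 1.30, adjusted p = 0.199). Of the 9 fits with a library left out, its call in t-rRPE was kept only in that without t-rRPE replicate 1 (adjusted p = 0.0205). There both t-rRPE libraries left were at 0. The other 8 of these fits gave adjusted p of up to 0.181. Log2 fold changes over the 9 fits ran from -7.76 to -6.05. DESeq2 called it lower in both groups (adjusted p = 0.00031 in t-rRPE and 0.0213 in rRPE) and edgeR in neither (0.247 and 0.375).

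In rRPE against RPE limma called 1 of 7 lower and 0 higher, against 1.03% of all genes called, 0.351% lower and 0.677% higher. In t-rRPE against RPE it called 1 of 7 lower and 0 higher, against 0.671% of all genes called, 0.314% lower and 0.357% higher. Before adjustment, 3 of 7 were lower in rRPE with p at or under 0.05 and 0 higher, against 5.03% and 6.97% of all genes, and 5 of 7 were lower in t-rRPE and 0 higher, against 6.45% and 5.97%. By single libraries, 4 of 7 lay wholly below RPE in rRPE and 0 wholly above, against 8.94% and 9.71% of all genes. In t-rRPE 5 of 7 lay wholly below and 0 wholly above, against 7.83% and 7.32%. Neither edgeR nor DESeq2 called any of the 7 higher. The median log2 fold change over the 7 was -1.91 in rRPE and -3.19 in t-rRPE, beside 0 over all genes in both. Both comparisons share the RPE libraries, so their values are not independent of each other. The study on these same samples named *PITX1* and *BARX2* among its top lower genes in rRPE against RPE. It read them as transcription factors of a changing regulation in RPE reprogramming and did not call them mesenchyme markers. *SCARA5* was known from earlier results of these samples. The direction of these genes is therefore not independent evidence. The other members and the lists below were also chosen with earlier results of these samples known. Their counts beside all genes are therefore not independent evidence either. Of the list genes given below, the study named *SNAI1*, *CDH5*, *COL1A1*, *MITF*, *OTX2* and *CRYAA* as changed, among others.

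**Figure D2:**
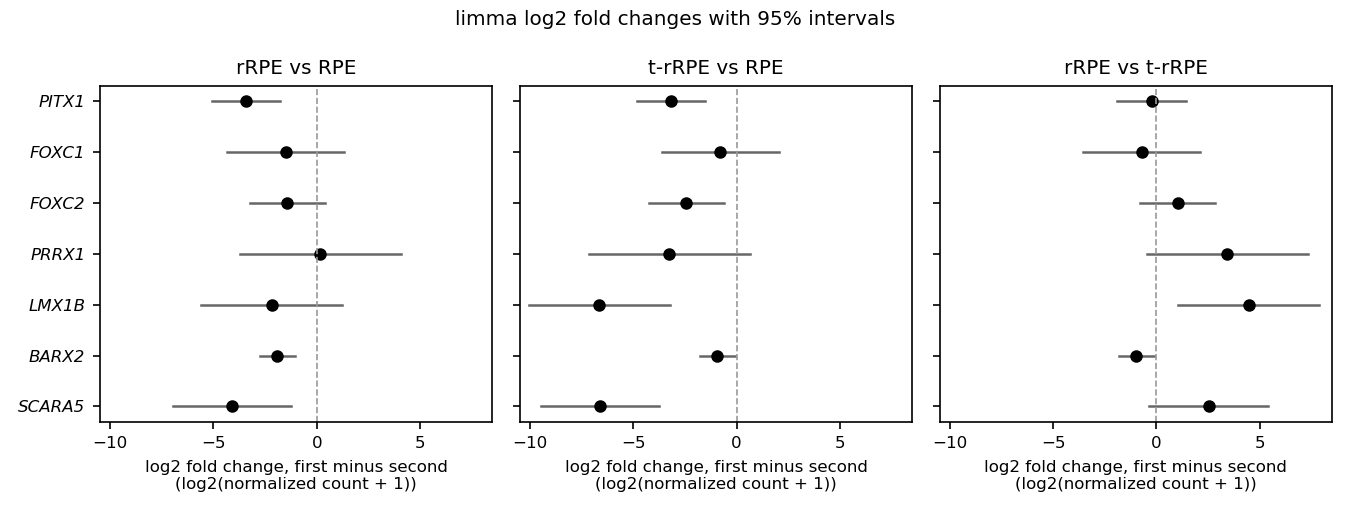
Log2 fold changes of the 7 genes on the log2(normalized count + 1) scale (horizontal axis) for rRPE against RPE, t-rRPE against RPE and rRPE against t-rRPE. Points are limma estimates and lines their 95% intervals; the intervals of *PITX1*, *BARX2* and *SCARA5* lie below 0 in both comparisons with RPE, and those of *LMX1B* and *FOXC2* in t-rRPE alone.

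Whether FGF2 altered the response of these genes to retinectomy was asked by rRPE against t-rRPE. Here limma called 0 of 7, against 0.0544% of all genes called, 0.0121% lower and 0.0423% higher, and edgeR and DESeq2 also called 0. Before adjustment, 2 of 7 had p at or under 0.05, against 9.31% of all genes, with *LMX1B* higher (5.35% of all genes on that side) and *BARX2* lower (3.96%). The point estimates were split, with *FOXC2*, *PRRX1*, *LMX1B* and *SCARA5* above 0 and 3 of 7, *PITX1*, *FOXC1* and *BARX2*, below it, against 48.5% of all genes. The printed values did not overlap for 1 of 7 on the higher side, *PRRX1*, against 6.84% of all genes, which rests on 3 reads in rRPE replicate 1 and is not resolved at this depth. They did not overlap for 0 of 7 on the lower side, against 5.68%. The intervals of *FOXC2* (-0.79 to 2.83) and *SCARA5* (-0.34 to 5.38) include differences in either direction.

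The 7 genes did not vary as one block from library to library. Within RPE, *PITX1*, *FOXC2*, *PRRX1* and *LMX1B* were all lowest in replicate 1 and all highest in replicate 2, although *PRRX1* held 65 reads in replicate 2 and 62 in replicate 3. *SCARA5* ran against this, with its highest intact value in replicate 1, and *BARX2* held similar values in replicates 1 and 2. Replicate 1 was also lowest for 18 of 28 further mesenchyme regulators (64.3%), for 9 of 21 matrix and surface genes (42.9%) and for 12 of 14 endothelial genes (85.7%), against 32.4% of all genes. It was lowest as well for 8 of 8 erythroid (100%), 10 of 14 RPE identity (71.4%) and 3 of 5 neural crest genes (60.0%). Its summed endothelial count was 7892, against 14976 and 15077 in replicates 2 and 3. The part of this in the members' values was not tested. Without RPE replicate 1 the log2 fold changes of *PITX1* and *FOXC2* in t-rRPE came to -3.57 and -3.10, and that of *LMX1B* to -6.86.

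Within t-rRPE, replicate 2 was highest for *PITX1*, *FOXC2* and *LMX1B*, and lowest for *BARX2*, while *PRRX1*, with 2 reads, could not be ranked. The same library was highest for 8 of 8 erythroid genes (100%) and 11 of 15 lens genes (73.3%), against 31.4% of all genes, with a lens sum of 410963, against 49461 and 202670.0 in replicates 1 and 3. Their part in the members' values was not tested. It was the only library of its group with reads of 9 of 56 genes, when the 7 were joined with the mesenchyme regulators and the mesenchyme matrix and surface genes (16.1%, against 3.62% of all genes). These 9, named after their values were seen, were *PRRX1*, *LMX1B*, *TFAP2A*, *TFAP2B*, *TWIST1*, *MEOX2*, *LMX1A*, *PDGFRA* and *LOX*, and that of *PRRX1* rests on 2 reads. Replicates 1 and 3 were the only ones with reads of 3 and 4 of the 56 genes (5.36% and 7.14%, against 3.74% and 3.76% of all genes). *MEOX2*, a homeobox gene of muscle and vascular mesenchyme, was at 211 normalized counts in t-rRPE replicate 2 and 0 in the other two, and *PDGFRA*, a receptor of mesenchymal cells, was at 208 there and 0 in the other two. Both were also at 0 in all rRPE libraries and in RPE replicate 1. Other mesenchyme regulators ran the other way in t-rRPE, such as *FOXF2* (48.8, 0 and 53.4) and *EBF3* (13.0, 0 and 53.4). Of the 56 joined genes, t-rRPE replicate 2 was highest for 23 (41.1%, against 31.4% of all genes). It was lowest for 14 of them (25.0%, against 28.9%). Within rRPE, replicate 3 was highest for *PITX1*, *PRRX1* and *BARX2* and lowest for *FOXC2*, *LMX1B* and *SCARA5*.

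Pairs of members were compared by the root mean square difference of their log2(normalized count + 1) over the 9 libraries, each centred on its own mean. It was smallest for *FOXC1* with *BARX2* (0.84) and for *PITX1* with *FOXC2* (1.05), and largest for *FOXC1* with *LMX1B* (3.51). *FOXC1* was near 0 in all libraries. Over 9680 other genes with a symbol and a mean of at least 50 normalized counts (9681 for *PRRX1*), the profile nearest to *PITX1* was that of *DIPK2B* (0.50), at 136 ± 64.5 in rRPE, 131 ± 92.3 in t-rRPE and 1098 ± 348 in RPE, followed by *FAM124A* (0.69) and *ADRA2A* (0.70), an adrenergic receptor. *FAM124A* was lower in rRPE (109.8 ± 99.0 against 1092 ± 243, log2 fold change -3.71, SE 0.72, adjusted p = 0.0362 in limma). It was picked by its likeness to *PITX1* in these same libraries, so this value is not an independent result. Nearest to *FOXC2* were *SNAI1* (0.49), a repressor that drives epithelial-mesenchymal transition, *FBLN2* (0.50), a matrix glycoprotein, and *MDM4* (0.52), an inhibitor of p53. These likenesses describe 9 libraries in 3 groups and say nothing of shared control.

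For *LMX1B* the nearest genes were *GP1BB* (0.65), *S100A13* (0.88) and *MOXD1* (0.89), and all 3 shared its counts of 0 in t-rRPE replicates 1 and 3. *MOXD1*, for example, was at 173, 283 and 112 in rRPE, 0, 303 and 0 in t-rRPE, and 561, 407 and 453 in RPE. For *BARX2* they were *SLC9A9*, *WWC2* and *VEPH1*, each at 0.35. Of these *WWC2*, a regulator of Hippo signalling, was lower in rRPE (1402 ± 264 against 3997 ± 188, log2 fold change -1.53, SE 0.26, adjusted p = 0.0235 in limma). It too was picked by its likeness to a member in these same libraries, so its lower value is not an independent result. The nearest genes were farther off for *PRRX1* (*FBLN7*, *IQSEC1* and *HIC1*, at 1.41 to 1.56) and for *SCARA5* (*ZAR1L* at 1.44, *MAOA* at 1.54 and *TRH* at 1.66). These distances were not scaled to how much each member itself varied. Its own root mean square about its mean was 0.85 for *BARX2*, 1.28 for *FOXC2* and 1.68 for *PITX1*. For *PRRX1*, *SCARA5* and *LMX1B* it was 2.45, 2.90 and 3.27.

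Of 34 further regulators known from cranial and periocular mesenchyme, 28 were measured. In t-rRPE 2 of 28 were called lower and 0 higher (against 0.314% and 0.357% of all genes), and 21 of 28 had a negative log2 fold change (median -1.70). *SNAI1* fell to 493, 520 and 255 normalized counts in t-rRPE, against 1537, 2866 and 3197 in RPE (log2 fold change -2.58, SE 0.40, adjusted p = 0.0226). *PRRX2*, the paralog of *PRRX1*, fell to 62.9, 141 and 45.6 in t-rRPE, against 638, 796 and 856 in RPE (log2 fold change -3.34, SE 0.58, adjusted p = 0.0343). In rRPE limma called 0 of 28 (against 1.03% of all genes), with 7 lower and 0 higher at or under 0.05 before adjustment (against 5.03% and 6.97%) and 20 of 28 negative (median -1.17). *PRRX2* was at 303, 195 and 150 there (log2 fold change -1.87, adjusted p = 0.189). The most abundant regulators were the nuclear receptors *NR2F2* and *RARB*. *NR2F2* was at 2217 to 3072 in 6 injured libraries, against 2086 to 3880 in RPE. *RARB* was at 1539 to 1781 in rRPE, wholly below its 2374 to 3089 in RPE, and at 1188 to 2426 in t-rRPE, which overlapped. Its log2 fold changes were -0.67 in rRPE and -0.60 in t-rRPE, neither called. Libraries did not overlap on the lower side for 9 of 28 in rRPE (32.1%, against 8.94% of all genes) and 8 of 28 in t-rRPE (28.6%, against 7.83%). On the higher side this held for 1 of 28 in rRPE and 0 of 28 in t-rRPE (against 9.71% and 7.32% of all genes).

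**Figure D3:**
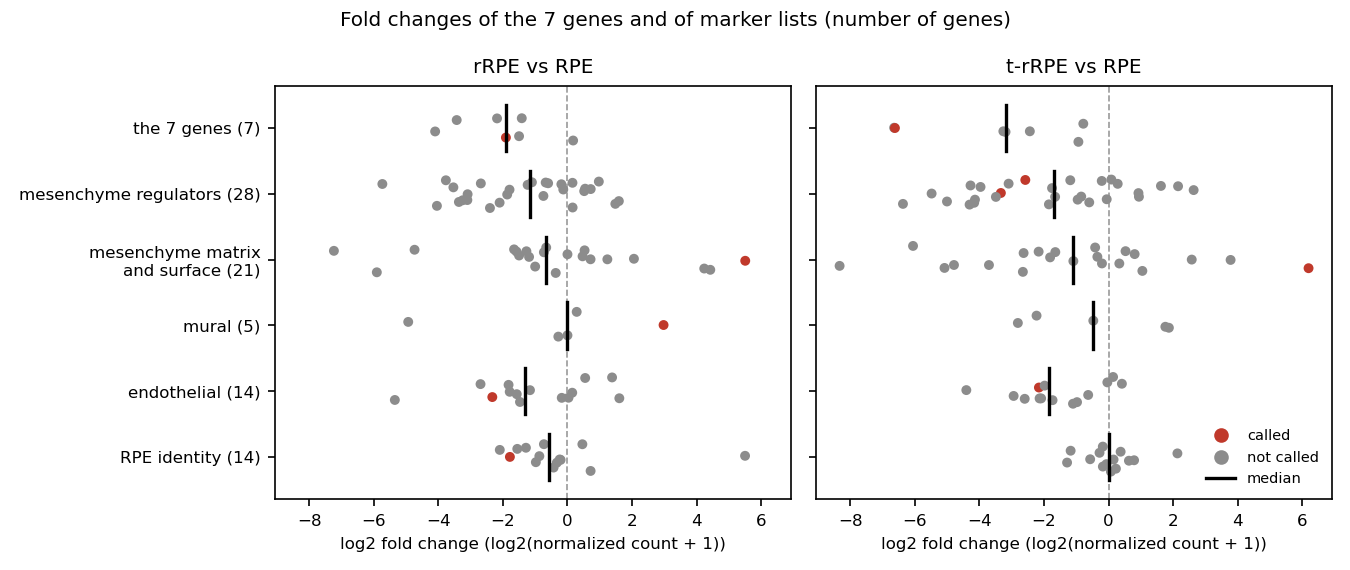
Log2 fold changes (horizontal axis, log2(normalized count + 1) scale) of single genes for rRPE against RPE and t-rRPE against RPE, by list, with the number of genes tested in brackets. Red points were called by limma and black bars are medians; the medians of the 7 genes lie at -1.91 and -3.19, and those of the matrix and surface genes at -0.66 and -1.09.

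The matrix and surface genes of mesenchyme had log2 fold changes of both signs. Of 21 measured, limma called 1 higher and 0 lower in each injured group (against 0.677% of all genes called higher in rRPE and 0.357% in t-rRPE). Before adjustment 4 were lower and 4 higher in rRPE with p at or under 0.05, against 5.03% and 6.97% of all genes. In t-rRPE 7 were lower and 2 higher, against 6.45% and 5.97%. The medians were -0.66 in rRPE and -1.09 in t-rRPE. Libraries lay wholly below RPE for 5 of 21 in rRPE (23.8%, against 8.94% of all genes) and 8 of 21 in t-rRPE (38.1%, against 7.83%). They lay wholly above RPE for 4 of 21 in rRPE and 2 of 21 in t-rRPE (against 9.71% and 7.32% of all genes). Among the 8 wholly below in t-rRPE were the collagen chain *COL1A1* (log2 fold change -2.63, adjusted p = 0.113 in limma) and the proteoglycan *DCN* (-3.71, adjusted p = 0.054). Both were chosen after their values were seen, and neither was called. The one called was *COL6A2*, a chain of microfibrillar collagen, at 303, 291 and 166 in rRPE and 181, 963 and 352 in t-rRPE, against 8.65, 0 and 15.4 in RPE (log2 fold change 5.51 in rRPE, adjusted p = 0.0478, and 6.19 in t-rRPE, adjusted p = 0.0396). *COL6A3*, another chain, went the other way and was not called. It was at 0, 155 and 0 in rRPE and 0 throughout t-rRPE, against 269, 266 and 464 in RPE (log2 fold change -5.91, adjusted p = 0.188, and -8.33, adjusted p = 0.0805, in limma). *COL6A1* overlapped with RPE in both injured groups. The 2 most abundant were *COL1A2*, at 9013 to 9743 in rRPE, 7346 to 9772 in t-rRPE and 5699 to 8328 in RPE, and *COL5A1*, at 5332 ± 1099 in rRPE, 5885 ± 509 in t-rRPE and 6830.3 ± 1114 in RPE. The summed level of the list was 21425 to 25844 in rRPE, 22689 to 23878 in t-rRPE and 22638 to 26943 in RPE, so that these ranges overlapped. Abundant genes such as *COL1A2* and *COL5A1* carry most of this sum, and it says little of the lower genes.

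**Figure D4:**
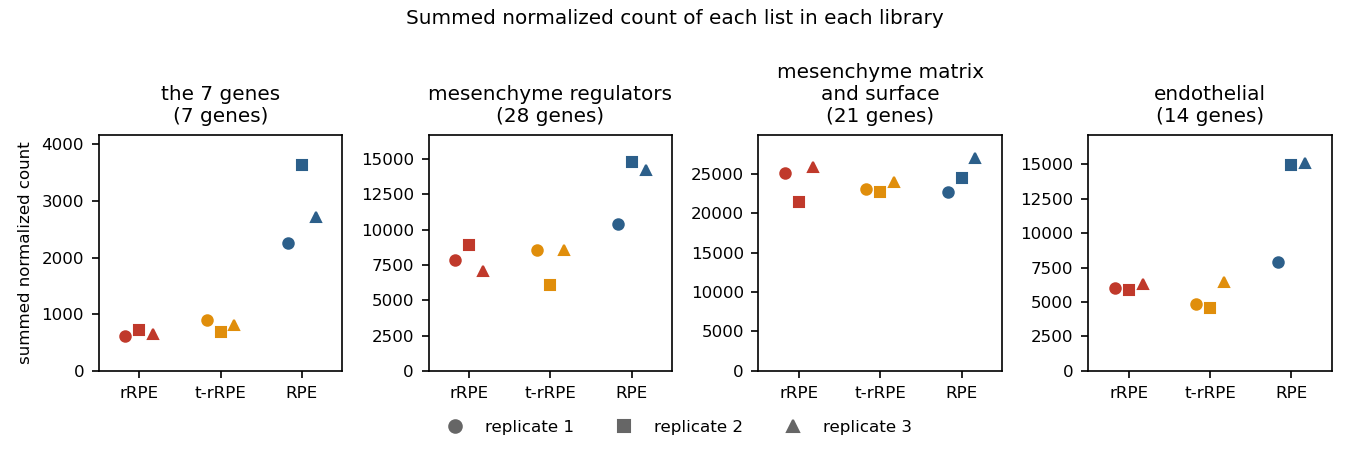
Summed normalized count (vertical axis, from 0, a separate scale for each panel) of the 7 genes, the mesenchyme regulators, the mesenchyme matrix and surface genes and the endothelial genes in each library, with symbols for replicates. The 7 genes lie at 618 to 905 in injured libraries, against 2248 to 3639 in RPE, the endothelial genes at 4572 to 6470.0, against 7892 to 15077, and the matrix and surface genes overlap between groups.

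Endothelial genes were measured beside the 7. Of 14, limma called 1 lower and 0 higher in each injured group (against 0.351% and 0.677% of all genes in rRPE and 0.314% and 0.357% in t-rRPE). It was *CDH5*, the cadherin of endothelial junctions, at 516 ± 128 in rRPE and 594 ± 222 in t-rRPE, against 2618 ± 755 in RPE (log2 fold change -2.33, adjusted p = 0.0131, and -2.16, adjusted p = 0.0271). Before adjustment 6 of 14 were lower and 0 higher in each group, against 5.03% and 6.97% of all genes in rRPE and 6.45% and 5.97% in t-rRPE. Libraries lay wholly below RPE for 7 of 14 in rRPE (50%, against 8.94% of all genes) and 5 of 14 in t-rRPE (35.7%, against 7.83%). They lay wholly above for 0 and 1 of 14 (against 9.71% and 7.32%). The median of the list was -1.32 in rRPE and -1.86 in t-rRPE, and its sums were 5887 to 6302 in rRPE and 4572 to 6470.0 in t-rRPE, against 7892 to 15077 in RPE. *PECAM1*, another endothelial junction gene, was at 2267 ± 466 in rRPE and 2124 ± 897 in t-rRPE, against 2033 ± 285 in RPE. Of 5 mural genes limma called 1 higher and 0 lower in rRPE (against 0.677% and 0.351% of all genes). It was *TAGLN*, an actin-binding protein of smooth muscle (1067 ± 709 against 118 ± 11.5, log2 fold change 2.98, adjusted p = 0.0261). In t-rRPE *TAGLN* was at 420 ± 145 (log2 fold change 1.76, adjusted p = 0.208 in limma, not called). There 1 of 5 mural genes, *TAGLN*, lay wholly above RPE and 0 wholly below, against 7.32% and 7.83% of all genes. In rRPE 1 of 5 lay wholly above RPE and 1 of 5 wholly below, against 9.71% and 8.94% of all genes. The one below was *ABCC9* (16.2 ± 28.1 against 115 ± 39.5, log2 fold change -4.93, adjusted p = 0.369 in limma, not called). *PDGFRB*, a defining pericyte gene, held reads in t-rRPE replicate 2 alone and was chosen after its values were seen. *ACTA2*, smooth muscle actin, was at 1485 ± 478 in rRPE and 1118 ± 758 in t-rRPE, against 1296 ± 713 in RPE. Whether the amount of captured mesenchyme or vessel had a part in the lower values of the 7 was not tested.

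The other lists gave few calls on the lower side. In rRPE limma called *MITF* lower than in RPE and *OTX2* lower than in t-rRPE among the RPE identity genes (log2 fold changes -1.78 and -1.10). Before adjustment 7 of 14 were lower and 1 higher in rRPE against RPE (against 5.03% and 6.97% of all genes). In rRPE 7 of 14 lay wholly below RPE (50%, against 8.94%), beside the 4 of 7 members that did so. Wholly above RPE lay 2 of 14 (against 9.71%). In t-rRPE against RPE 0 of these 14 were called (before adjustment, 1 lower and 2 higher, against 6.45% and 5.97% of all genes). Erythroid, muscle, neural crest and surface epithelium genes had 0 called in any comparison (before adjustment, against RPE, 1 and 2 erythroid genes lower in rRPE and t-rRPE, 1 muscle gene lower and 1 higher in t-rRPE, and 1 neural crest gene higher in rRPE). Among 15 lens genes 5 were called higher in rRPE and 7 in t-rRPE (against 0.677% and 0.357% of all genes), such as *CRYAA*, an alpha crystallin (log2 fold change 6.76 in rRPE and 8.90 in t-rRPE).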

How the data were processed

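RNA of 9 libraries, 3 each of rRPE, t-rRPE and RPE, was analysed. Per the labels and the study's methods, the authors used Trim Galore 0.6.1 and cutadapt 1.18 for trimming, aligned reads to GRCg6a with STAR 2.7.3, counted them over Ensembl genes with StringTie 2.0.4 without strand, and divided each library by 1 size factor of DESeq2 1.22.2. The deposited signal is this normalized count. All values (100%) were whole multiples of 1 step within 1e-06, so whole reads were recovered.

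The 16535 genes whose counts summed to 20 or more (100 were left out, none of them a member) went as log2(normalized count + 1) into limma 3.58.1 in R 4.3.3 (lmFit, contrasts.fit, eBayes with a trend) in 1 model of 9 libraries, with Benjamini-Hochberg adjustment. A fold change on this scale depends on the offset of 1 for low genes. Beside edgeR it can be smaller, as for *PRRX1* in t-rRPE against RPE (-3.26, against -5.43). It can also be larger, as for *LMX1B* in t-rRPE against RPE (-6.64, against -4.38). The threshold values are those of the study, which applied them to shrunken DESeq2 fold changes and its filter to unnormalized counts, whereas here the filter was on normalized counts and the fold changes were unshrunken. The fit was tested on simulated data. Alternatives were other offsets, filters, scalings and models, edgeR 4.0.16 and DESeq2 1.42.0 on recovered reads, the replicate number as a block, and each library left out. Replicates are separate embryos.

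The members and lists were chosen with earlier results of these data known. The text names the members, genes of the lists that were called or the 2 with the highest mean, and the 3 nearest profiles of each member with a mean of at least 10, except that genes of the lists for other tissues are given mostly as counts. Some further genes of the lists, such as *ABCC9*, *FOXF2* and *COL6A3*, were named after their values were seen. Symbols come from the deposited table. Some genes are not reported here.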

Additional observations from a re-analysis of the deposited data

How the results depend on the processing

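Of the single-gene results under 21 alternatives, 400 kept their direction and side of the threshold, 24 lost and 7 gained a call, and 7 reversed. Most of the 400 were uncalled results that stayed uncalled. The call of *BARX2* in rRPE against RPE was kept in 10 of 21 alternatives, and that of *SCARA5* in t-rRPE against RPE in 8 of 21. All 24 losses were of these calls. Members called lower in rRPE against RPE (1) came to 0 with the replicate block, without the trend and with edgeR. They came to 2 with only the 6 libraries compared, to 3 with DESeq2, and to 0 to 2 with a library left out. Beside this, the genes called lower among all tested (58 in the main fit) came to 84 with the 6 libraries and 182 with DESeq2. In t-rRPE against RPE (1) the members called lower came to 0 with an offset of 0.5, quantile normalization, the replicate block, the 6 libraries compared and edgeR. They came to 3 with DESeq2, and to 0 to 1 with a library left out. Among all genes tested, those called lower there (52 in the main fit) came to 218 with DESeq2.

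All genes called in rRPE against RPE (170) came to 71 without the trend, 101 with edgeR, 575 with DESeq2 and 0 to 187 with a library left out. In t-rRPE against RPE (111) they came to 64 with the replicate block, 73 without the trend, 0 with the 6 libraries compared, 48 with edgeR, 507 with DESeq2 and 0 to 109 with a library left out. In rRPE against t-rRPE (9) they came to 31 without the trend, 0 with the 6 libraries compared, 230 with DESeq2 and 0 to 1 with a library left out. The log2 fold change of *PRRX1* in rRPE against RPE (0.18) became -0.18 with an offset of 5, -0.21 with quantile normalization and with DESeq2, -0.20 with edgeR, -0.94 without rRPE replicate 3 and -1.71 without RPE replicate 1, with a range of -1.71 to 1.14 over libraries left out. That of *PITX1* in rRPE against t-rRPE (-0.24) became 0.34 without t-rRPE replicate 2, with a range of -0.62 to 0.34. The cause was not tested. Same-numbered libraries of different groups were correlated over all genes tested, after the mean of its group was taken from each gene. These correlations were -0.0307 to 0.0605, so the replicate numbers showed no pairing of the libraries. At 0 to 12 reads, *FOXC1* gave no usable comparison, and a filter at a mean of 10 left it out.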
